A study of Mus musculus with 36 samples.

Results

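Macrophages, dendritic cells and T cells sit between the tubules of the kidney, and 37 genes that mark them were followed here through cadmium exposure in mice. The 37 symbols were fixed by name but chosen with earlier results of these data known, and each was found once among the 55536 annotated genes. All 37 passed the filter on low counts, which kept 18180 genes. The study sequenced kidney RNA from ob mice (ob/ob) at 2 mg/kg CdCl2, ob mice at 0.5 mg/kg, untreated ob controls, b6j mice (C57BL/6) at 2 mg/kg, b6j mice at 0.5 mg/kg and untreated b6j controls. Each of the 6 groups had 6 libraries. All groups share the C57BL/6 strain in the labels, and ob/ob mice lack functional leptin in every tissue. The labels name neither the route nor the length of dosing and no age, and they call the 6 libraries of a group only replicates, so the p-values measure the spread between these libraries. RNA came from whole snap-frozen kidney.

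Resident macrophages of the mouse kidney carry F4/80 and depend on the CSF1 receptor, and monocytes that carry CCR2 enter the organ after tubule injury. Macrophages and dendritic cells cut antigens and load the peptides on MHC class II, with cathepsin S and the invariant chain preparing the class II molecule for its peptide. T cells recognise these complexes through a receptor coupled to the CD3 chains. Several of the 37 genes are not confined to leukocytes: galectin-3 is also made by collecting duct cells, and class II molecules, CD14 and lysosomal proteins can appear in tubule cells. In whole tissue, fewer cells of a type and less RNA per cell cannot be told apart.

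The promoters of 4 members are shown because the class II genes and the C1q genes are the blocks of neighbouring genes with changes of similar size below. Each stretch runs from 250 bases before to 50 bases after the RefSeq start (RefSeq, GRCm38.p6), read 5′ to 3′ on the strand of the gene. Capitals mark the Y box CTGATTGG in the class II promoters, beginning 51 bases before the start of H2-Aa and 62 bases before that of H2-Eb1. In the C1q promoters capitals mark the ETS core GAGGAA, the core bound by PU.1 and its relatives, beginning 30 bases before the C1qb start, and the same core read from the opposite strand, TTCCTC, beginning 193 bases before the C1qc start. The annotation used for counting can place a start elsewhere. Relative to it, the RefSeq start was at 0 bases for H2-Aa and H2-Eb1, -13 for C1qb and 151 (downstream) for C1qc.
H2-Aa, chr17:34287774-34288073, minus strand: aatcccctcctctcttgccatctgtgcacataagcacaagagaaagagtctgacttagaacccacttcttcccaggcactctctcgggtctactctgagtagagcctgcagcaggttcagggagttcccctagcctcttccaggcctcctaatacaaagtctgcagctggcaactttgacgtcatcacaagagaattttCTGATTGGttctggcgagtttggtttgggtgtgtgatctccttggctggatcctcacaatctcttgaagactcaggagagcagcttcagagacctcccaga
H2-Eb1, chr17:34305617-34305916, plus strand: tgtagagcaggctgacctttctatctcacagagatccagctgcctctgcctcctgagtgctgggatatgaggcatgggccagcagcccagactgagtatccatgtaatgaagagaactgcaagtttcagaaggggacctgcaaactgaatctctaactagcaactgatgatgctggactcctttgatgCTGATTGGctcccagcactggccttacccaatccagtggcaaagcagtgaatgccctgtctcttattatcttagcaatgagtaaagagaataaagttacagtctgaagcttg
C1qb, chr4:136886151-136886450, minus strand: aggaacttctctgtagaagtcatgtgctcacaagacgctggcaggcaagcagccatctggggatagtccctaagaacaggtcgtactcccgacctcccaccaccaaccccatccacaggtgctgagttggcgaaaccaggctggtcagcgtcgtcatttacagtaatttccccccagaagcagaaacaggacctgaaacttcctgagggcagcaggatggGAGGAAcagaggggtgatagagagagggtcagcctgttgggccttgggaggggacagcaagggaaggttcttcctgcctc
C1qc, chr4:136892865-136893164, minus strand: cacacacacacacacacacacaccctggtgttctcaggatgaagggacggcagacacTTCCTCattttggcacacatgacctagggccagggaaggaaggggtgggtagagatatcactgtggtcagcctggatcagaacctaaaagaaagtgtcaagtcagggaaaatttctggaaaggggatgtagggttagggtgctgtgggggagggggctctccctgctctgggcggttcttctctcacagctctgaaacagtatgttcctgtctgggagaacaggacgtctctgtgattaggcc
Both strands were searched, and no member's promoter held both motifs. Of the 37 members, 28 have a promoter in the RefSeq table. The Y box (CTGATTGG or CCAATCAG) was in 2 of the 28, those of H2-Aa and H2-Eb1, and in 4.1% of 32851 promoters of the same length. The ETS core (GAGGAA or TTCCTC) was in 14 of the 28, C1qb and C1qc among them, and in 28.3% of all. These are matches of letters, and binding was not measured.

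The libraries held 26783936 to 37244058 counted reads, so that 3 counts were worth 0.0851 to 0.112 CPM (counts scaled to a common library size), and levels below that are near the limit of detection. Mt1, the metallothionein that cadmium induces, rose by 5.31 ± 0.16 on the log2 scale in ob mice at 2 mg/kg (5.25 ± 0.15 without replicate 5, a library described below) and by 4.73 ± 0.15 in b6j mice. Markers of the proximal tubule summed to 3271 ± 314 CPM per kilobase of exon in ob controls and 3879 ± 319 in b6j controls (SD, n = 6). The 37 members summed to 344 ± 25.3 and 345 ± 38.7 in the same libraries. Havcr1, the kidney injury molecule of the tubule, had 181 CPM in b6j control replicate 4, against 2.15 to 13 CPM in the other 5 b6j controls. Leaving that library out left the number of members called at 2 mg/kg at 28 in ob and 21 in b6j. In b6j the call of C1qa was then lost and that of Clec7a gained.

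One library stood apart. The replicate 5 library of ob at 2 mg/kg was lower than the other 5 libraries of its group for 30 of the 37 members, higher for 4 (Cd68, Cd14, Cd163 and Lgals3) and within their range for 3 (Laptm5, Gpnmb and Itgam). Against the ob controls it lay below the lowest for 24 members, above the highest for 8 and within their range for 5. Its members summed to 230 CPM per kilobase, the lowest sum of the 36 libraries, against 591 to 946 in the other 5 libraries of its group. In the same library the 10 markers of injured tubule summed to 8696 CPM per kilobase, against 1250 to 2219 in those 5, and the 8 markers of proximal tubule to 816, against 1981 to 2733. Such a sum follows its most abundant genes. Of the injured tubule markers, Spp1 had 3546 ± 3703 CPM (SD) in ob at 2 mg/kg, Lcn2 278 ± 627 and Havcr1 201 ± 179. The part that tubule injury, cell loss or RNA quality has in these values was not tested. Member counts, sums and changes of this group are given with all 6 libraries and again without this one where it bears on them, the value without it standing in brackets or in the next sentence.

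Genes were tested with edgeR (quasi-likelihood F test), p-values were adjusted by Benjamini-Hochberg over the 18180 genes, and a gene is called at an adjusted p below 0.05. Changes are log2 ratios ± SE, and levels are in CPM on scaled library sizes.

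At 2 mg/kg the leukocyte genes as a group stood higher in both genotypes. In ob mice 27 of the 37 members rose and 1, Csf1r, fell, while 20.4% of all genes tested were called higher and 18% lower. In b6j mice 21 of 37 rose and 0 fell, while 12.3% of all genes were called higher and 11.4% lower. The median change of the members was 0.95 in ob and 0.65 in b6j, against 0.01 and 0.02 over all genes. Because the list was chosen with earlier results known, the values over all genes give a scale and not an independent test. Without replicate 5 of ob at 2 mg/kg, 32 members rose and 1 fell in ob, with 19.1% of 18380 genes called higher and 18.9% lower, and the median of the members was 1.02. That fit shares its estimate of spread with the b6j groups, where 30 members then rose, with 17% of genes called higher and 17.7% lower, while the median was 0.65 again. A fit to the 12 libraries of ob at 2 mg/kg and ob controls alone, replicate 5 included, called 13 of 36 members tested, all higher, with 13.3% of genes called higher and 9.92% lower. A fit to the 12 libraries of the same b6j groups called 29 members higher and 1 lower, with 18.6% of genes called higher and 18.1% lower. A joined count table also deposited equals 24 of the libraries in every gene and none of the other 12, of which 1 is in ob at 2 mg/kg, 3 in b6j at 2 mg/kg, 4 in b6j at 0.5 mg/kg and 4 in b6j controls. With those 24 libraries alone, an alternative chosen after seeing the data, 18 members rose in ob and 6 in b6j and 0 fell, with medians of 0.90 and 0.86. That fit rests on 5 and 3 libraries at 2 mg/kg and on 6 and 2 controls, in ob and b6j in that order. Counts of all genes called in it come at the end, without direction. The member counts are therefore not set against a background. The groups did not overlap for 8 members in ob, 7 of them higher and Csf1r lower, and for 16 in b6j, all higher. Over all genes tested, the groups did not overlap for 8.39% higher and 8.73% lower in ob and for 8.36% higher and 8.92% lower in b6j. Without replicate 5 they did not overlap for 29 members in ob, 28 higher and 1 lower, against 11.3% of all genes higher and 11.1% lower.

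**Figure D1:**
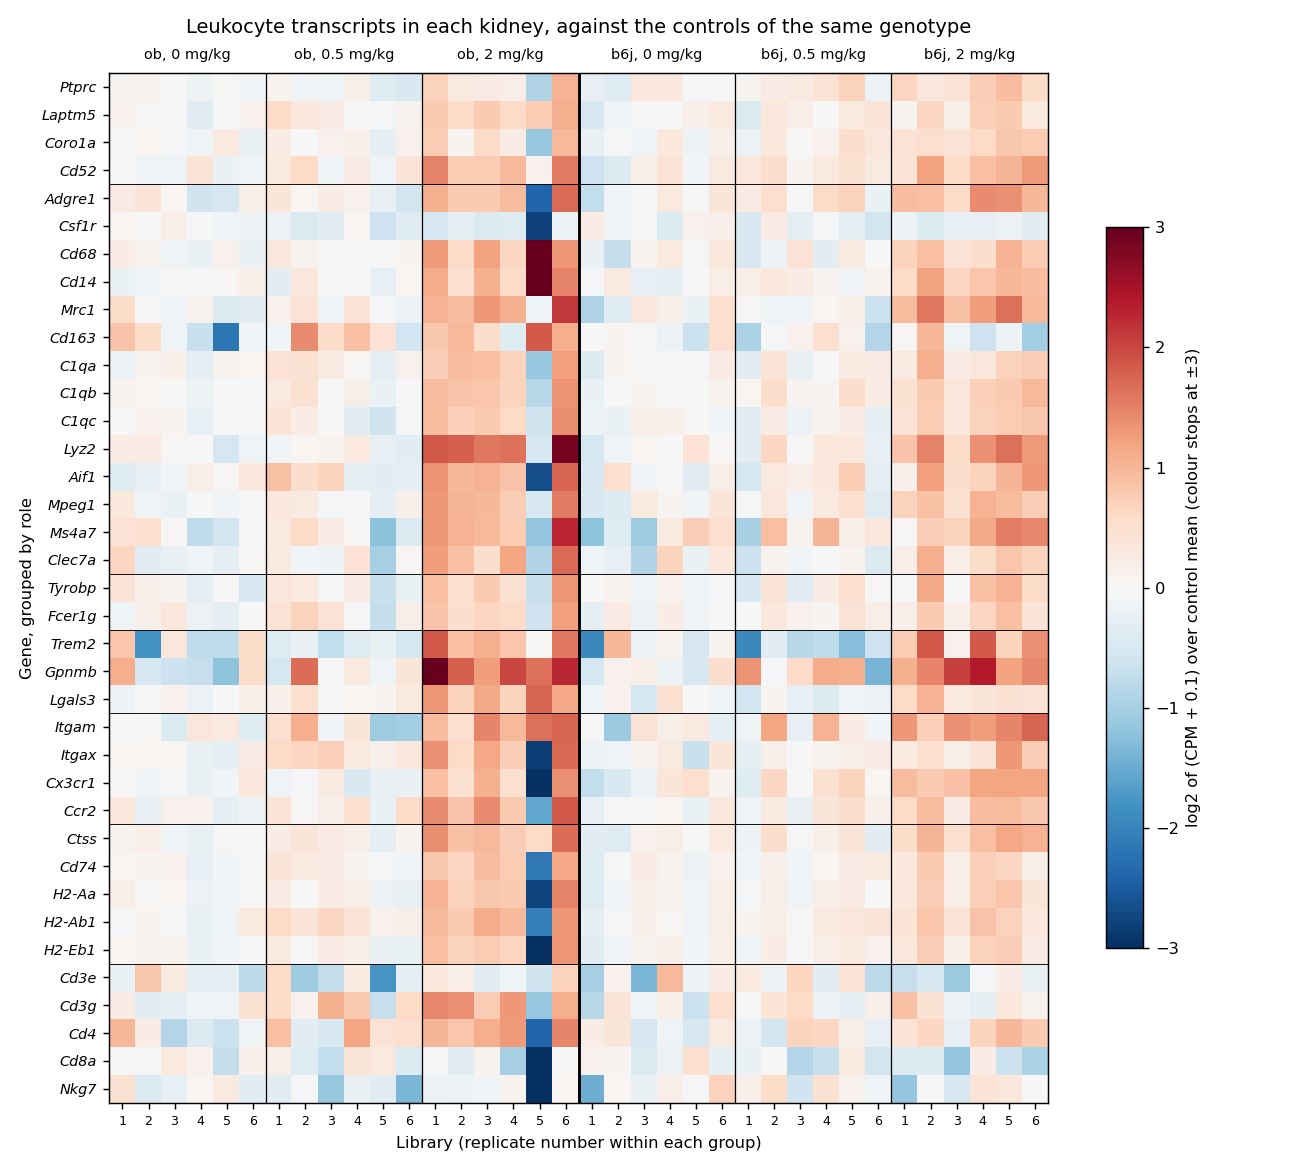
Level of each of the 37 genes (rows, by role) in each of the 36 libraries (columns, by group) as log2 of (CPM + 0.1) over the control mean of the same genotype; the colour scale stops at 3 in either direction. Columns of the ob group at 2 mg/kg are above controls for most rows except in replicate 5, which lies below the ob controls for 24 of the 37 genes.

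The summed level of the 37 genes was 618 ± 231 CPM per kilobase in ob at 2 mg/kg (696 ± 146 without replicate 5) and 344 ± 25.3 in ob controls. It was 526 ± 86.9 in b6j at 2 mg/kg and 345 ± 38.7 in b6j controls. The lowest b6j library at 2 mg/kg, at 415, was above the highest b6j control, at 384, and without replicate 5 the lowest ob library at 2 mg/kg, at 591, was above the highest ob control, at 365. Most of the sum was MHC class II: the 5 presentation genes gave 348 ± 156 (406 ± 70.3 without replicate 5) in ob at 2 mg/kg and 212 ± 17.8 in ob controls. The 32 other members summed to 270 ± 83.1 (290 ± 76.6 without replicate 5) in ob at 2 mg/kg and 131 ± 8.19 in ob controls. In b6j those 32 summed to 205 ± 36.1 at 2 mg/kg and 125 ± 11.1 in controls.

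**Figure D2:**
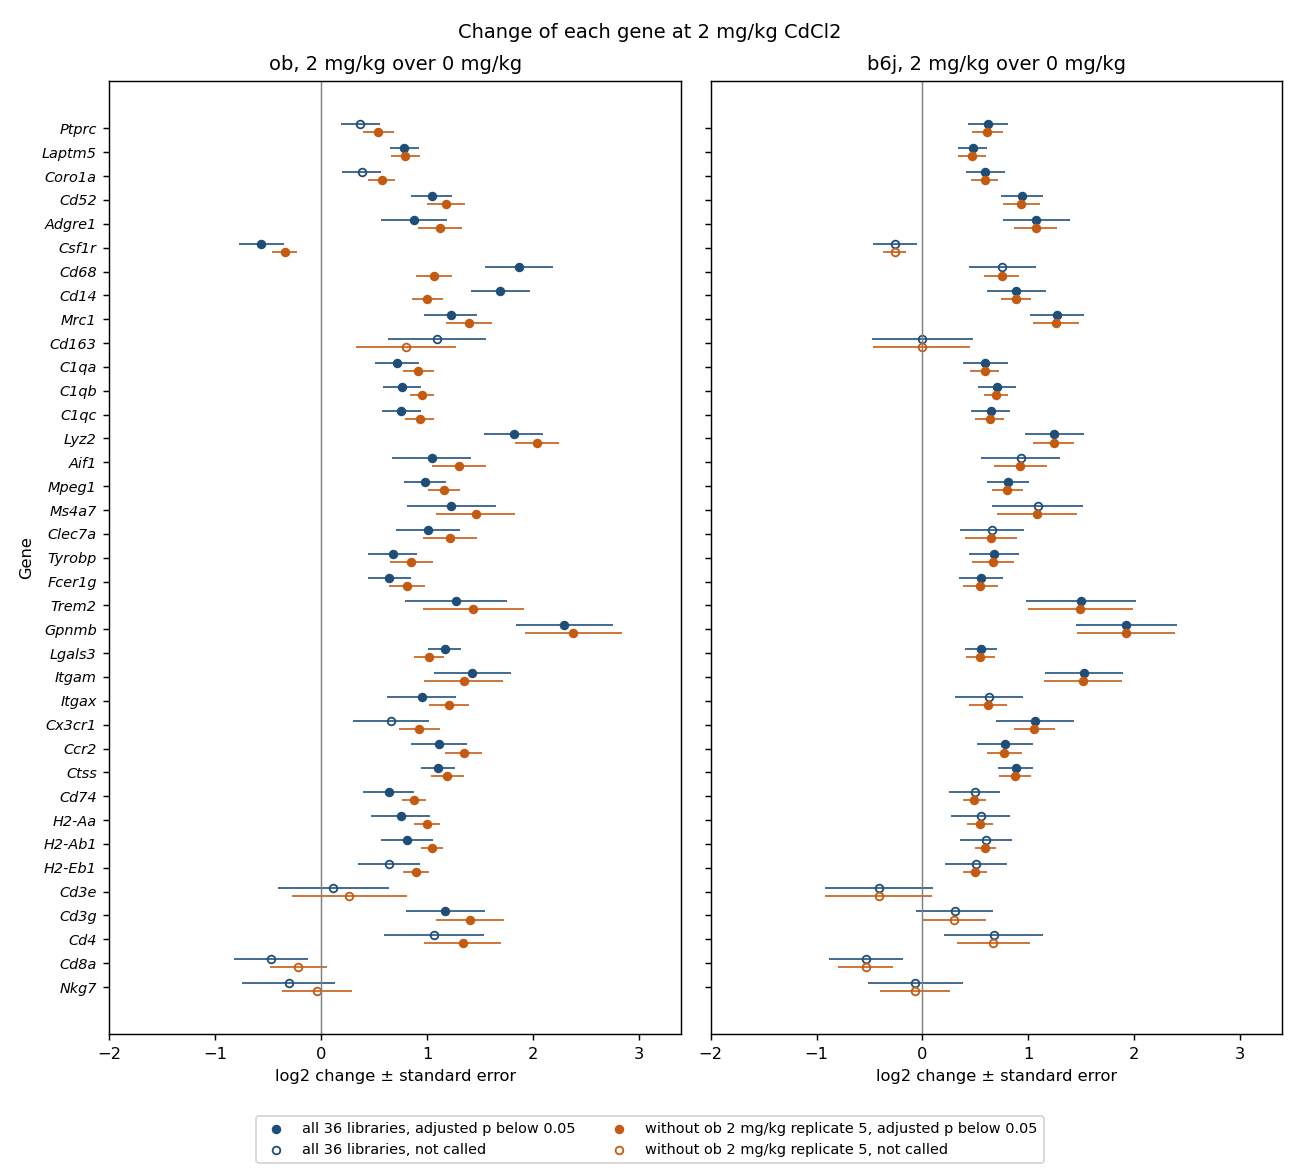
Change of each member at 2 mg/kg against the untreated controls of its genotype (x axis, log2 ratio ± SE), in ob on the left and in b6j on the right, by role; one marker is the fit to 36 libraries and the other the fit without ob 2 mg/kg replicate 5, and filled markers are called at an adjusted p below 0.05. Most points lie right of 0 in both panels, with Csf1r, Cd8a and Nkg7 left of 0 in both.

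Among the genes of all leukocytes, Ptprc encodes the surface phosphatase CD45, Laptm5 a lysosomal membrane protein, Coro1a an actin-binding coronin and Cd52 a small anchored glycoprotein. All 4 rose in b6j at 2 mg/kg, and Laptm5 and Cd52 rose in ob. Ptprc (chromosome 1, 138062861 to 138175708, GRCm38) had a lowest, median and highest level of 6.39, 14.5 and 24.9 CPM in ob at 2 mg/kg, and 10.9, 12.3 and 13.1 CPM in ob controls. The ob groups overlapped through replicate 5 alone, since 5 of 6 libraries at 2 mg/kg were above every control. Its change in ob was 0.37 ± 0.19 with an adjusted p of 0.112, and 0.54 ± 0.15 and called without replicate 5. In b6j, Ptprc had 12.4, 14.7 and 18.6 CPM at 2 mg/kg and 7.39, 9.36 and 12.2 CPM in controls, 0.62 ± 0.19 higher (adjusted p = 0.0135), with no overlap. Coro1a was at 0.38 ± 0.19 in ob (adjusted p = 0.0994), at 0.57 ± 0.13 and called without replicate 5, and rose by 0.59 ± 0.19 in b6j. Cd52 rose by 1.04 ± 0.20 in ob (1.18 ± 0.18 without replicate 5) and 0.94 ± 0.20 in b6j, and Laptm5 by 0.78 ± 0.14 (0.80 ± 0.14 without it) and 0.48 ± 0.14.

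The 14 macrophage genes gave the largest block. In ob at 2 mg/kg 12 rose and Csf1r fell, and in b6j 8 rose. Leaving out replicate 5 the counts were 12 risen and 1 fallen in ob, and 12 risen in b6j. Their median change was 1.03 in ob (1.09 without replicate 5) and 0.78 in b6j. The summed level of the 14 was 195 ± 68.6 CPM per kilobase in ob at 2 mg/kg (211 ± 62.5 without replicate 5) and 88.7 ± 5.99 in ob controls. In b6j it was 144 ± 25.7 at 2 mg/kg and 84.7 ± 8.44 in controls.

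Adgre1 encodes F4/80, the surface receptor by which mouse macrophages are usually recognised (chromosome 17, 57358691 to 57483527). Its lowest, median and highest levels were 0.935, 9.67 and 17.3 CPM in ob at 2 mg/kg and 3.43, 5.69 and 6.84 CPM in ob controls. Replicate 5 held the 0.935, and the other 5 libraries were above every control. It rose by 0.88 ± 0.31 in ob (adjusted p = 0.0248), and by 1.12 ± 0.21 without replicate 5. This call was lost without ob control replicate 4 or 5 or without replicate 6 of ob at 2 mg/kg (adjusted p up to 0.108). In b6j the levels were 6.48, 8.45 and 11.7 CPM at 2 mg/kg and 2.55, 4.22 and 5.58 CPM in controls. The b6j groups did not overlap, with a rise of 1.07 ± 0.31 (adjusted p = 0.011) that held without any single library.

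C1qa, C1qb and C1qc, neighbours on chromosome 4 between 136880129 and 136898803, encode the 3 chains of complement C1q, which tissue macrophages secrete. C1qb had 9.6, 31.2 and 44.8 CPM as lowest, median and highest in ob at 2 mg/kg and 15.6, 17.6 and 18.6 CPM in ob controls. In b6j it had 19, 25.2 and 29.3 CPM at 2 mg/kg and 13, 15.1 and 16 CPM in controls. Replicate 5 was below the ob controls and the other 5 above them, and the b6j groups did not overlap. C1qb rose by 0.76 ± 0.18 in ob (adjusted p = 0.000972; 0.95 ± 0.11 without replicate 5) and by 0.70 ± 0.18 in b6j (adjusted p = 0.00398). C1qc rose by 0.76 ± 0.18 in ob (0.93 ± 0.14 without replicate 5) and 0.64 ± 0.18 in b6j, and C1qa by 0.72 ± 0.21 (0.92 ± 0.14 without it) and 0.59 ± 0.21. The b6j call of C1qa (adjusted p = 0.0377) was lost without any one of b6j control replicates 1, 2, 3, 4 and 5 or b6j 2 mg/kg replicates 2, 5 and 6, with adjusted p up to 0.128.

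Lyz2, the lysozyme of macrophages and granulocytes, had the highest level per kilobase of the macrophage genes in untreated kidney. It had 21.1, 97.8 and 218 CPM as lowest, median and highest in ob at 2 mg/kg and 21.1, 30.4 and 35.3 CPM in ob controls. In b6j it had 43.3, 74.5 and 93.2 CPM at 2 mg/kg and 20.5, 29.9 and 40.2 CPM in controls. Replicate 5 was at the level of the lowest ob control, and the other 5 were at 90.1 CPM or more. The rise was 1.82 ± 0.28 in ob, or 3.53-fold (adjusted p = 3.23e-06; 2.04 ± 0.21 without replicate 5), and 1.25 ± 0.27 in b6j, or 2.37-fold (adjusted p = 0.000842). Mrc1, the mannose receptor CD206, rose by 1.22 ± 0.25 in ob (1.4 ± 0.22 without replicate 5) and 1.27 ± 0.25 in b6j. Mpeg1, the pore-forming perforin-2, rose by 0.98 ± 0.20 in ob (1.16 ± 0.15 without replicate 5) and 0.81 ± 0.20 in b6j.

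Replicate 5 was the highest library of its group for 3 of the 14 macrophage genes, Cd68, Cd14 and Cd163. Cd68, a glycoprotein of late endosomes and lysosomes, had 5.89, 9.41 and 45 CPM as lowest, median and highest in ob at 2 mg/kg and 3.38, 3.93 and 4.55 CPM in ob controls. Cd14, the lipopolysaccharide co-receptor, had 8.69, 13.3 and 58.8 CPM in ob at 2 mg/kg and 5.44, 6.33 and 7.16 CPM in ob controls. For Cd68 and Cd14, all 6 libraries at 2 mg/kg were above every ob control. The change of Cd68 was 1.87 ± 0.32 in ob (adjusted p = 1.6e-05) and 1.06 ± 0.17 without replicate 5, and that of Cd14 was 1.69 ± 0.28 (adjusted p = 1.08e-05) and 1.00 ± 0.14. Of the 12 libraries of the compared groups, no other one, left out, moved a called change of a member by more than 1.5-fold. In b6j, Cd14 rose by 0.89 ± 0.28, and Cd68 was 0.75 ± 0.31 higher (adjusted p = 0.078), with 5.42 to 8.25 CPM at 2 mg/kg and 2.38 to 5.05 CPM in controls and so no overlap. The Cd68 change of 0.75 ± 0.16 in b6j was called when replicate 5 of ob at 2 mg/kg was left out of the common fit.

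Csf1r went the other way. It encodes the receptor for CSF1 and interleukin-34 on which macrophages depend. Its lowest, median and highest levels were 8.38, 44.7 and 52.2 CPM in ob at 2 mg/kg and 53.3, 58.9 and 67.7 CPM in ob controls. All 6 libraries at 2 mg/kg lay below every control. It fell by 0.56 ± 0.21 on the log2 scale in ob (adjusted p = 0.0328), a call lost without ob control replicate 1, 2 or 3 (adjusted p up to 0.0676). Without replicate 5 it fell by 0.35 ± 0.11 and was called. In b6j it had 61.9, 69.1 and 73.1 CPM at 2 mg/kg and 61.1, 84 and 95.8 CPM in controls, a change of -0.26 ± 0.21 (adjusted p = 0.414). Exons of Csf1r share 873 of 5774 bases with Hmgxb3 on the opposite strand. The counting ignored strand, so reads there cannot be told apart, and whether they were counted for either gene was not checked. Hmgxb3, looked up after the Csf1r values were seen, was at 0.00 ± 0.08 in ob at 2 mg/kg.

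**Figure D3:**
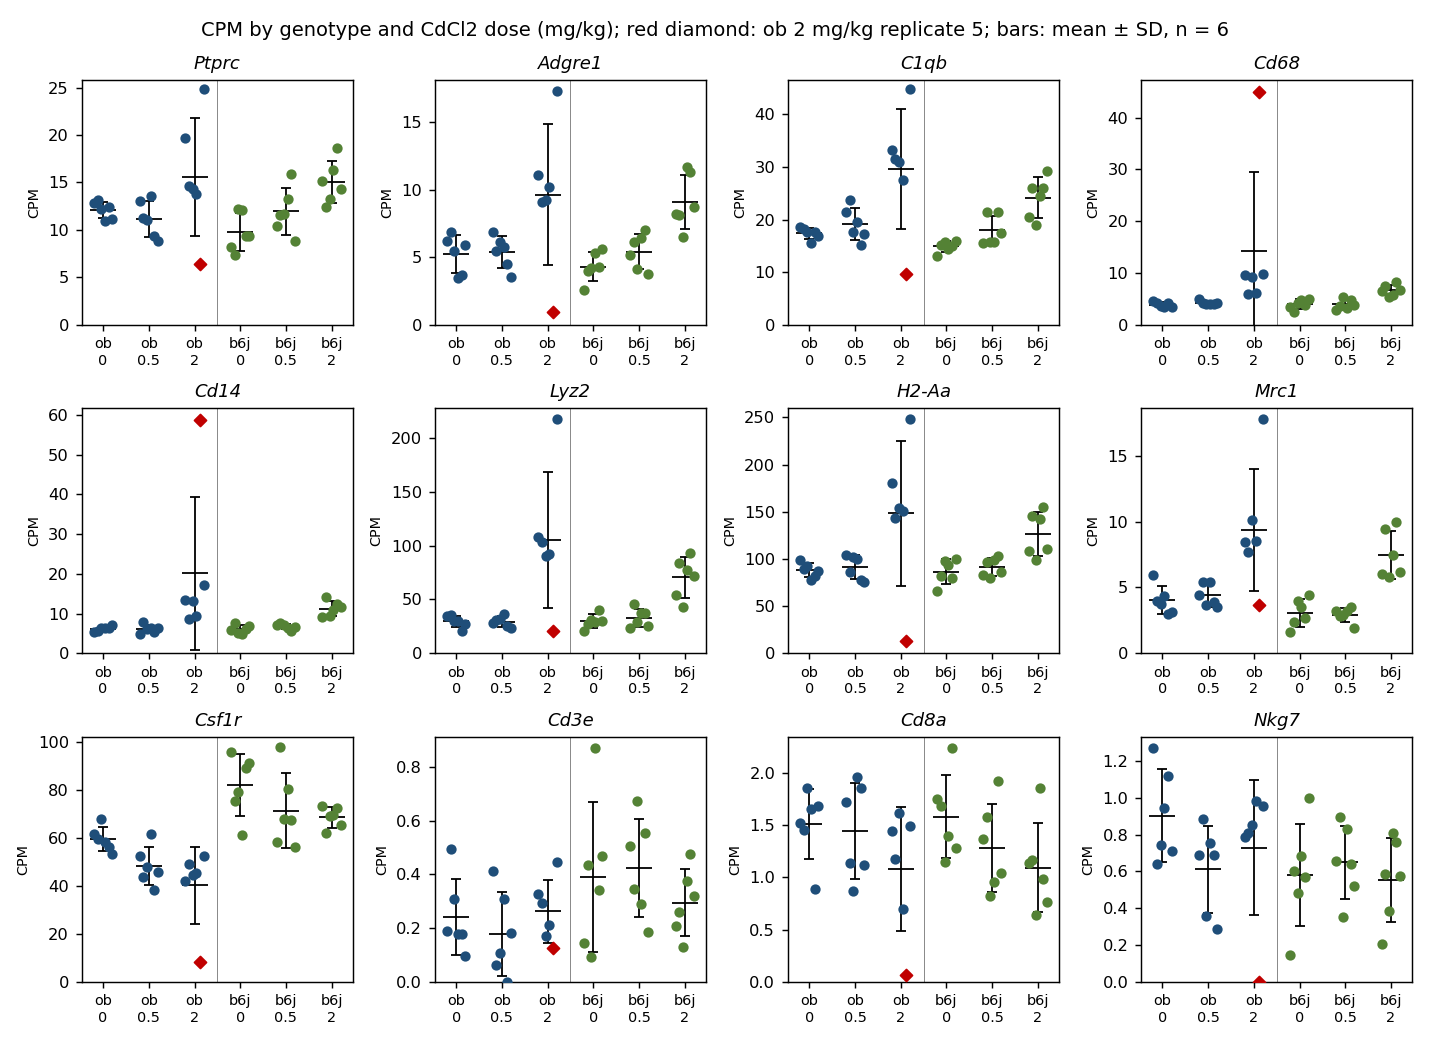
CPM per library of 12 members in the 6 groups (points), with the mean ± SD of 6 libraries (bars); the red diamond is ob 2 mg/kg replicate 5. In the panels of Ptprc, Adgre1, C1qb, H2-Aa and Csf1r that diamond is the lowest point of its group, and in those of Cd68 and Cd14 the highest.

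The remaining macrophage genes were low in level. Aif1, the calcium-binding protein IBA1, rose by 1.04 ± 0.37 in ob (adjusted p = 0.0244; 1.30 ± 0.26 without replicate 5), a call lost without replicate 1 or 6 of ob at 2 mg/kg (adjusted p up to 0.0818), and was 0.93 ± 0.37 higher in b6j (adjusted p = 0.0682). Ms4a7, a membrane-spanning protein of macrophages, rose by 1.23 ± 0.42 in ob (adjusted p = 0.0188; 1.46 ± 0.37 without replicate 5), a call lost without replicate 6 of ob at 2 mg/kg (adjusted p = 0.105), and was 1.09 ± 0.43 higher in b6j (adjusted p = 0.0631). That b6j value was called without b6j control replicate 5 or b6j 2 mg/kg replicate 1 (adjusted p down to 0.0226). Clec7a, the beta-glucan receptor dectin-1, rose by 1.01 ± 0.30 in ob (adjusted p = 0.00721; 1.22 ± 0.26 without replicate 5) and was 0.65 ± 0.30 higher in b6j (adjusted p = 0.115), which was called without b6j control replicate 4 (adjusted p = 0.0412). All 3 were called in b6j when replicate 5 of ob at 2 mg/kg was left out. Cd163, the scavenger receptor for haemoglobin bound to haptoglobin, had 0.35 to 1.99 CPM in ob at 2 mg/kg and 0.0295 to 0.949 CPM in ob controls. It was 1.09 ± 0.47 higher in ob (adjusted p = 0.0613) and 0.80 ± 0.47 higher without replicate 5, its highest library, neither of them called. It was called without ob control replicate 1 or 2 or ob 2 mg/kg replicate 4 (adjusted p down to 0.0244). In b6j the change was -0.00 ± 0.48.

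Tyrobp (DAP12) and Fcer1g are the adaptor chains through which many myeloid receptors signal. Tyrobp had 3.55 to 14.5 CPM in ob at 2 mg/kg and 4.13 to 7.46 CPM in ob controls, and 4.35 to 9.9 CPM in b6j at 2 mg/kg and 4.06 to 4.91 CPM in b6j controls. It rose by 0.67 ± 0.23 in ob (adjusted p = 0.0206) and 0.68 ± 0.24 in b6j (adjusted p = 0.0331). Fcer1g rose by 0.64 ± 0.20 in ob (adjusted p = 0.0118) and 0.55 ± 0.20 in b6j (adjusted p = 0.0458). Both ob calls were lost without replicate 6 of ob at 2 mg/kg (adjusted p up to 0.0858). Of 13 libraries left out in turn, 7 ended the b6j call of Tyrobp (b6j control replicates 1, 3, 5 and 6 and 2 mg/kg replicates 2, 4 and 5) and 8 that of Fcer1g (the same 7 and 2 mg/kg replicate 6), with adjusted p up to 0.121. With replicate 5 of ob at 2 mg/kg left out the 4 changes were 0.85 ± 0.20 and 0.67 ± 0.20 for Tyrobp and 0.81 ± 0.17 and 0.55 ± 0.17 for Fcer1g, in ob and b6j in that order, all called.

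Trem2, Gpnmb and Lgals3 mark macrophages that take up lipid and debris in injured tissue, and all 3 rose in both genotypes. Gpnmb, a transmembrane glycoprotein of such cells, had the largest change of the 37 members: 1.42, 2.29 and 5 CPM as lowest, median and highest in ob at 2 mg/kg and 0.177, 0.329 and 1.27 CPM in ob controls. In b6j it had 0.863, 1.16 and 2.29 CPM at 2 mg/kg and 0.218, 0.357 and 0.564 CPM in controls. Neither pair of groups overlapped. It rose by 2.30 ± 0.46 in ob, or 4.91-fold (adjusted p = 0.000151; 2.38 ± 0.46 without replicate 5), and by 1.93 ± 0.47 in b6j, or 3.80-fold (adjusted p = 0.00256). Lgals3, galectin-3, rose by 1.17 ± 0.15 in ob (1.02 ± 0.14 without replicate 5, its highest library at 72 CPM) and by 0.55 ± 0.15 in b6j. Trem2, the lipid-sensing receptor that signals through Tyrobp, was low, with 0.685 to 2.62 CPM in ob at 2 mg/kg and 0.116 to 1.27 CPM in ob controls. In b6j it had 0.321 to 1.3 CPM at 2 mg/kg and 0 to 0.671 CPM in controls. Its rises of 1.27 ± 0.48 in ob (adjusted p = 0.036) and 1.49 ± 0.52 in b6j (adjusted p = 0.0327) hung on single libraries. The ob call was lost without ob control replicate 2, 4 or 5 or 2 mg/kg replicate 1 or 6, and the b6j call without b6j control replicate 1, 3 or 5 or 2 mg/kg replicate 2, 4 or 6 (adjusted p up to 0.0931). Without replicate 5 of ob at 2 mg/kg the Trem2 change in ob was 1.44 ± 0.48.

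Of the genes that monocytes and dendritic cells share, Itgam encodes CD11b, Itgax CD11c, Cx3cr1 the fractalkine receptor and Ccr2 the receptor by which monocytes follow CCL2. In each genotype 3 of the 4 rose, and without replicate 5 all 4 rose in both. Ccr2 had 1.18, 8.26 and 13.3 CPM as lowest, median and highest in ob at 2 mg/kg and 3.01, 3.61 and 4.55 CPM in ob controls. Replicate 5 was below the controls and the other 5 were above. It rose by 1.11 ± 0.27 in ob (adjusted p = 0.00125; 1.35 ± 0.17 without replicate 5). In b6j it rose by 0.78 ± 0.26 (adjusted p = 0.0285), a call lost without b6j control replicate 1 or 5 or 2 mg/kg replicate 2, 4 or 5 (adjusted p up to 0.0622). Itgam, at 0.81 to 2.06 CPM in ob at 2 mg/kg and 0.371 to 0.711 CPM in ob controls, rose by 1.43 ± 0.36 in ob (1.35 ± 0.37 without replicate 5) and 1.52 ± 0.37 in b6j, with no overlap in either genotype. Exons of Itgam share 3450 of 5024 bases with Gm49368 on the same strand, a gene looked up after the values were seen. Gm49368 was at or below 0.119 CPM, so few reads of the shared bases were assigned to it. Whether those reads were counted for Itgam was not checked, and the level of Itgam may be too low.

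Cx3cr1 and Itgax were nearly absent in replicate 5, at 0.125 and 0.467 CPM. Cx3cr1 otherwise had 5.15 to 9.87 CPM in ob at 2 mg/kg, against 3.26 to 4.77 CPM in ob controls. With 6 libraries its change in ob was 0.66 ± 0.36 (adjusted p = 0.147), and without replicate 5 it was 0.93 ± 0.20 and called. In b6j it had 4.41 to 5.84 CPM at 2 mg/kg and 1.45 to 3.58 CPM in controls, a rise of 1.06 ± 0.37 (adjusted p = 0.0311). That call was lost without b6j control replicate 1, 2 or 3 or 2 mg/kg replicate 4, 5 or 6 (adjusted p up to 0.0773). Itgax rose by 0.95 ± 0.32 in ob (adjusted p = 0.0189; 1.21 ± 0.19 without replicate 5), a call lost without replicate 6 of that group (adjusted p = 0.0762). In b6j it was 0.62 ± 0.32 higher (adjusted p = 0.165), and called when replicate 5 of ob at 2 mg/kg was left out.

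The MHC class II presentation genes gave most of the summed level of the members. H2-Aa encodes the alpha chain of I-A, H2-Ab1 its beta chain and H2-Eb1 the beta chain of I-E, and they lie together on chromosome 17 between 34257689 and 34316674. Cd74 encodes the invariant chain and Ctss cathepsin S, which trims it. In ob at 2 mg/kg 4 of the 5 rose and in b6j 1, Ctss, rose. With replicate 5 left out all 5 rose in both genotypes. H2-Aa had 13, 152 and 248 CPM as lowest, median and highest in ob at 2 mg/kg and 77.8, 88.2 and 98.7 CPM in ob controls. Replicate 5 held the 13, and the other 5 had 143 CPM or more, above every control. It rose by 0.75 ± 0.28 in ob (adjusted p = 0.0315), a call lost without ob control replicate 4 or 5 or 2 mg/kg replicate 1 or 6 (adjusted p up to 0.12), and by 1.00 ± 0.13 without replicate 5. In b6j, H2-Aa had 98.5, 127 and 155 CPM at 2 mg/kg and 66.1, 87.4 and 99.9 CPM in controls, 0.55 ± 0.28 higher (adjusted p = 0.157), with 5 of 6 libraries above every control.

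H2-Ab1 and H2-Eb1 followed H2-Aa. H2-Ab1 rose by 0.81 ± 0.24 in ob (adjusted p = 0.0079; 1.05 ± 0.11 without replicate 5) and was 0.60 ± 0.24 higher in b6j (adjusted p = 0.0683), where its groups did not overlap. H2-Eb1 was 0.64 ± 0.29 higher in ob (adjusted p = 0.0797; 0.90 ± 0.12 and called without replicate 5) and 0.50 ± 0.29 higher in b6j (adjusted p = 0.227). Cd74 rose by 0.64 ± 0.24 in ob (adjusted p = 0.034; 0.87 ± 0.11 without replicate 5), a call lost without ob control replicate 4 or 5 or 2 mg/kg replicate 1, 3 or 6 (adjusted p up to 0.0988), and was 0.49 ± 0.24 higher in b6j (adjusted p = 0.138). With replicate 5 of ob at 2 mg/kg left out, the b6j changes of 0.54 ± 0.12 for H2-Aa, 0.59 ± 0.10 for H2-Ab1, 0.50 ± 0.11 for H2-Eb1 and 0.49 ± 0.11 for Cd74 were all called. Ctss had 24.2, 30.3 and 51.3 CPM as lowest, median and highest in ob at 2 mg/kg and 13.6, 16 and 18.3 CPM in ob controls. It rose by 1.10 ± 0.16 in ob (adjusted p = 1.53e-06; 1.19 ± 0.16 without replicate 5) and 0.88 ± 0.16 in b6j (adjusted p = 9.4e-05), with no overlap in either genotype, and no single library ended either call.

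The T and natural killer cell genes were scarce, and 1 of 5 rose in ob (2, Cd3g and Cd4, without replicate 5). Over all genes tested 20.4% were called higher there (19.1% without replicate 5), so 1 of 5 is near that share. Cd3e and Cd3g encode CD3 chains of the T cell receptor complex, Cd4 and Cd8a the coreceptors of helper and cytotoxic T cells, and Nkg7 a protein of cytotoxic granules. The 5 genes summed to 1.66 ± 0.779 CPM per kilobase in ob at 2 mg/kg (1.97 ± 0.132 without replicate 5) and 1.69 ± 0.284 in ob controls. In b6j they summed to 1.42 ± 0.366 at 2 mg/kg and 1.49 ± 0.395 in controls. In ob Cd3g rose, and in b6j edgeR, DESeq2 and limma-voom called 0 of 5, with 0 at an unadjusted p below 0.05 in edgeR.

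Cd3g had 0.125, 1.04 and 1.24 CPM as lowest, median and highest in ob at 2 mg/kg and 0.29, 0.355 and 0.58 CPM in ob controls. It rose by 1.17 ± 0.37 in ob (adjusted p = 0.012; 1.41 ± 0.32 without replicate 5), with 5 of 6 libraries above every control, and its change in b6j was 0.31 ± 0.36. Cd3e, which belongs to the same complex, had 0.125 to 0.447 CPM in ob at 2 mg/kg and 0.0967 to 0.493 CPM in ob controls. The groups overlapped, and the change was 0.12 ± 0.53 in ob (0.27 ± 0.55 without replicate 5) and -0.41 ± 0.51 in b6j. Cd4, which some myeloid cells also carry, was 1.07 ± 0.47 higher in ob (adjusted p = 0.0716), and was called without replicate 5 (1.34 ± 0.36) or without ob control replicate 1 (1.46, adjusted p = 0.0195). Cd8a was at -0.47 ± 0.35 in ob (-0.22 ± 0.27 without replicate 5) and -0.53 ± 0.35 in b6j, and Nkg7 at -0.31 ± 0.44 (-0.039 ± 0.33 without it) and -0.07 ± 0.45, none of them called. Replicate 5 had no read of Cd4 or Nkg7, which at 3 counts allows up to 0.0935 CPM there.

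Calls at 2 mg/kg were compared between the genotypes, each of which has its own controls. Of the 27 that rose in ob, 18 (66.7%) also rose in b6j, and these were 85.7% of the 21 there. Over all genes, 1648 were called higher in both, 44.4% of the 3708 in ob and 73.8% of the 2232 in b6j. Without replicate 5 of ob at 2 mg/kg, 30 were shared, 93.8% of 32 in ob and 100% of 30 in b6j, against 62.2% and 69.9% over all genes. The difference in response between genotypes, ob minus b6j, was called by edgeR for 0 of 37 members, while 2.07% of all genes were called. DESeq2 and limma-voom also called 0 of 37, and 3 members had an unadjusted p below 0.05. Those were Lgals3 at 0.61 ± 0.22 (adjusted p = 0.127), Cd68 at 1.11 ± 0.44 (adjusted p = 0.178) and Cd14 at 0.81 ± 0.39 (adjusted p = 0.284), all with a larger rise in ob.

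When replicate 5 of ob at 2 mg/kg was left out those differences were 0.47 ± 0.19 for Lgals3, 0.32 ± 0.24 for Cd68 and 0.12 ± 0.20 for Cd14, so that Cd68 and Cd14 moved by more than 1.5-fold. Then 9 members had an unadjusted p below 0.05, all with a larger rise in ob. The share of all genes at that unadjusted threshold is not given, for this count or for the one with all libraries. Neither count is therefore set against a background or read as a difference between the genotypes. At an adjusted p below 0.05 edgeR called 0 of 37, with 4.12% of all genes called. Among the 9, H2-Ab1 differed by 0.45 ± 0.15, H2-Aa by 0.46 ± 0.17, Lyz2 by 0.80 ± 0.28 and Cd3g by 1.11 ± 0.44. The difference was positive for 31 of 37 members with a median of 0.33, against 27 of 37 and 0.14 with all libraries. Over all genes the median was 0.00 both ways.

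**Figure D4:**
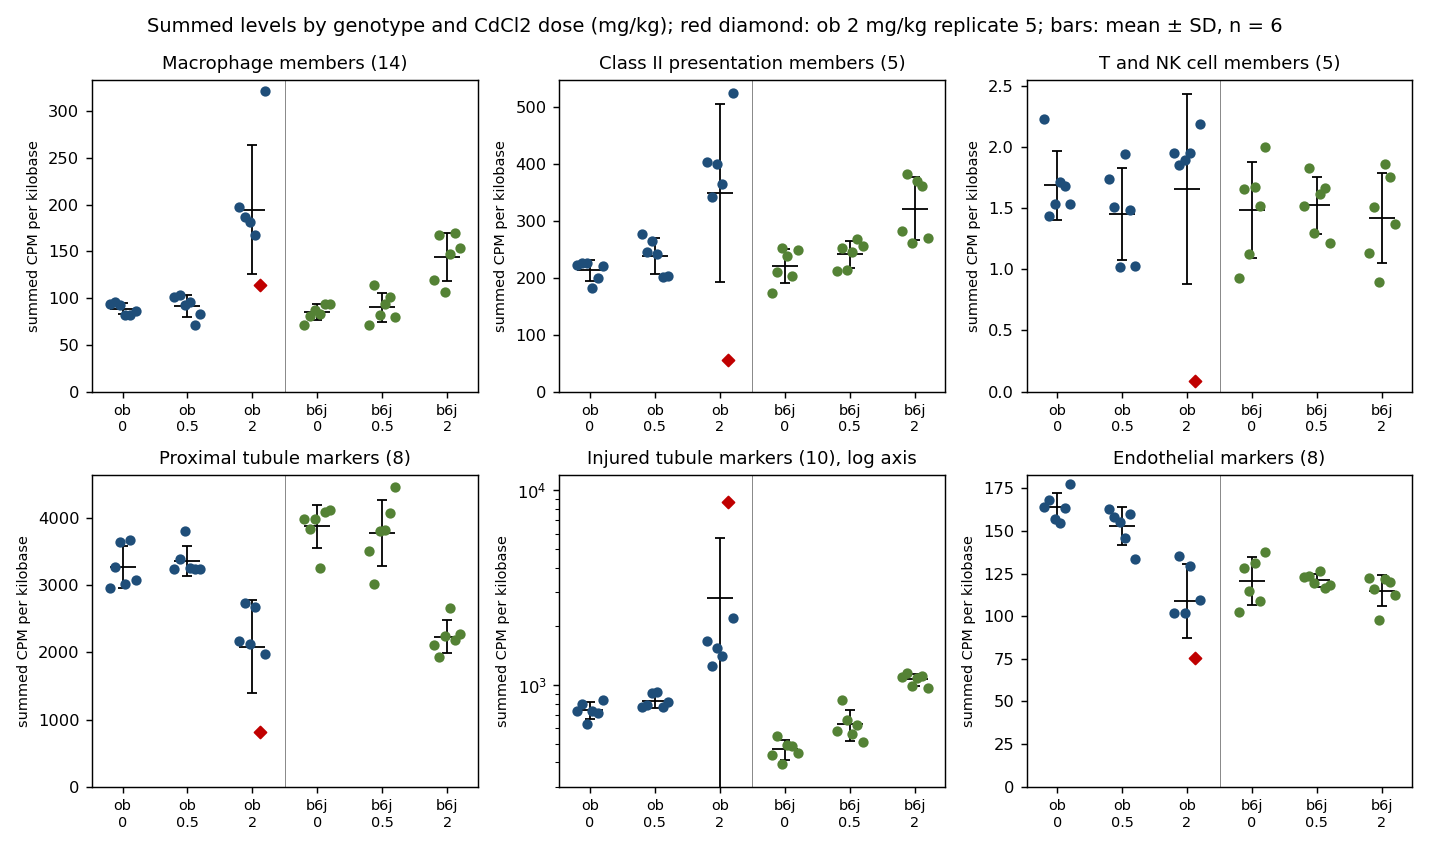
Summed CPM per kilobase of exon in each library (points) and mean ± SD of 6 libraries (bars) for the 14 macrophage members, the 5 class II members, the 5 T and natural killer cell members, and markers of proximal tubule, injured tubule (log axis) and endothelium, in the 6 groups. The macrophage and class II sums stand higher at 2 mg/kg in both genotypes, while the proximal tubule sum stands lower.

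At 0.5 mg/kg the edgeR fit to 36 libraries called no member. In ob at 0.5 mg/kg against ob controls edgeR called 0 of 37, while 4.28% of all genes were called. No member had an unadjusted p below 0.05, DESeq2 called 0, and limma-voom called 2, H2-Ab1 higher and Csf1r lower. The members had a median change of 0.10, and 26 of 37 were above 0, but with libraries scaled by size alone the median was 0.00 and 19 were above 0. Without replicate 5 of ob at 2 mg/kg in the common fit, 1 member was called, H2-Ab1, with 9.68% of all genes called. H2-Ab1 had 102, 123 and 142 CPM as lowest, median and highest in ob at 0.5 mg/kg and 79.6, 90.5 and 113 CPM in ob controls, a change of 0.40 ± 0.24 (adjusted p = 0.473) with all libraries and 0.39 ± 0.10 without that one. The groups overlapped. In b6j at 0.5 mg/kg edgeR called 0 of 37, while 0.325% of all genes were called. DESeq2 and limma-voom also called 0, and 1 member, Trem2, had an unadjusted p below 0.05, at -1.37 ± 0.60. The median change was 0.14, and 28 of 37 were above 0. The response to 0.5 mg/kg, ob minus b6j, was called for 0 of 37 by edgeR, DESeq2 and limma-voom, with 0 at an unadjusted p below 0.05 in edgeR and 0.385% of all genes called.

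The summed level of the 37 genes was 377 ± 47.2 CPM per kilobase in ob at 0.5 mg/kg and 344 ± 25.3 in ob controls. It was 373 ± 41.6 in b6j at 0.5 mg/kg and 345 ± 38.7 in b6j controls. In ob the lowest, median and highest sums were 307, 393 and 430 at 0.5 mg/kg and 303, 354 and 365 in controls. The ob groups overlapped, though the median at 0.5 mg/kg lay above the highest control. In b6j they were 317, 378 and 419 at 0.5 mg/kg and 279, 351 and 384 in controls, and overlapped. These sums were not tested. By dose, the median of Gpnmb was 0.329, 0.614 and 2.29 CPM at 0, 0.5 and 2 mg/kg in ob and 0.357, 0.729 and 1.16 CPM in b6j. The median of Ccr2 was 3.61, 4.47 and 8.26 CPM in ob and 5.32, 6.14 and 9.76 CPM in b6j. The median of Csf1r was 58.9, 46.8 and 44.7 CPM in ob and 84, 67.7 and 69.1 CPM in b6j. At 0.5 mg/kg edgeR called none of these 3 genes in either genotype, and limma-voom called Csf1r lower in ob.

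Untreated kidneys of the genotypes were compared next. Between ob controls and b6j controls edgeR called 0 of 37, while 15.5% of all genes were called. Of the members, 2 had an unadjusted p below 0.05, DESeq2 called 0 and limma-voom called 3, Cx3cr1 higher and Csf1r and Ccr2 lower in ob controls. The 2 were Trem2, 1.21 ± 0.52 higher in ob controls (adjusted p = 0.118, and 0.0408 without b6j control replicate 2), and Csf1r, at -0.46 ± 0.21 (adjusted p = 0.14). Csf1r had 53.3 to 67.7 CPM in ob controls and 61.1 to 95.8 CPM in b6j controls, and Hmgxb3, its partner on the opposite strand, was at -0.41 ± 0.08 in the same comparison. Without replicate 5 of ob at 2 mg/kg, which enters here through the common estimate of spread, 3 members were called, with 26% of all genes called. Those were Cx3cr1, 0.57 ± 0.19 higher in ob controls, and Csf1r at -0.46 ± 0.11 and Ccr2 at -0.55 ± 0.17, both lower in ob controls. The sums of 344 ± 25.3 and 345 ± 38.7 CPM per kilobase differed by less than either SD.

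Per kilobase of exon, the class II genes led the members in untreated kidney of both genotypes. In ob controls Cd74 led with 89.7 ± 8.50 CPM per kilobase, followed by H2-Eb1 (51.7 ± 4.41), H2-Ab1 (36.2 ± 4.51), H2-Aa (23.1 ± 1.93), Lyz2 (22.7 ± 4.0), C1qa (17.2 ± 2.01) and C1qb (16.0 ± 0.983). In b6j controls the first 6 were in the same order, from 97.1 ± 14.5 for Cd74 to 14.4 ± 2.01 for C1qa. Macrophage markers such as Cd68 (3.11 ± 0.401 in ob controls) and Adgre1 (1.62 ± 0.431) stood in the middle. The lowest were Gpnmb (0.0827 ± 0.0650) and Cd3e (0.0590 ± 0.0346) in ob controls, and Trem2 (0.0576 ± 0.0449) and Gpnmb (0.0549 ± 0.0203) in b6j controls. Of the 36 pairs of neighbours in the order, 16 differed by more than the larger SD of the pair in ob controls and 20, H2-Aa and Lyz2 among them, did not, and 9 did and 27 did not in b6j controls.

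Other genes of the same cells, from lists set by role, moved as follows at 2 mg/kg. Beside the counts of these and later lists, 20.4% of all genes tested were called higher and 18% lower in ob. In b6j 12.3% were called higher and 11.4% lower. Without replicate 5 of ob at 2 mg/kg the shares were 19.1% and 18.9% in ob and 17% and 17.7% in b6j. A count near these shares is not read as a result about the cells. Of 26 further myeloid genes tested, 19 rose and 1 fell in ob (21 and 1 without replicate 5), and 13 rose and 1 fell in b6j. The gene that fell was Fcgr2b in both, the inhibitory Fc receptor that B cells and liver endothelium also carry, by 1.32 ± 0.14 on the log2 scale in ob (a change of -1.18 ± 0.11 without replicate 5) and by 0.82 ± 0.14 in b6j. Fcgr3, an activating Fc receptor, rose by 0.96 ± 0.18 in ob (0.94 ± 0.19 without replicate 5), and Spi1, which encodes PU.1, rose by 0.98 ± 0.18 in b6j. Of 10 genes of dendritic cells, 4 rose and 1 fell in ob (5 and 1 without replicate 5). Cd209a, a C-type lectin, rose by 2.04 ± 0.44 there (2.29 ± 0.38 without it), and Zbtb46, a transcription factor of classical dendritic cells that endothelium also expresses, fell by 0.43 ± 0.13 (a change of -0.31 ± 0.11 without it). In b6j 0 of the 10 were called by edgeR or DESeq2, with 0 at an unadjusted p below 0.05, and limma-voom called 1. In untreated kidneys Cd209a was at -1.67 ± 0.44 and Zbtb46 at 0.72 ± 0.13 in ob controls relative to b6j controls. In ob at 0.5 mg/kg edgeR called Fcgr2b lower, at -0.50 ± 0.14 (adjusted p = 0.0319; -0.51 ± 0.10 without replicate 5 of ob at 2 mg/kg). Irf8, a gene of the dendritic cell list, was also called lower there, at -0.45 ± 0.11 (adjusted p = 0.0166; -0.45 ± 0.11 without that library).

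The loading machinery of class II was followed as a list of 9 genes. H2-DMa and H2-DMb1 encode the exchange factor that swaps peptides on class II, with H2-DMb2 its second beta chain. At 2 mg/kg 3 of the 9 rose in ob and 3 in b6j, the 3 H2-DM genes each time, and without replicate 5 of ob at 2 mg/kg 5 rose in ob and 4 in b6j. H2-DMb2 rose by 2.82 ± 0.30 in ob (2.96 ± 0.29 without replicate 5) and 2.59 ± 0.30 in b6j, H2-DMb1 by 1.09 ± 0.11 (1.08 ± 0.11) and 0.88 ± 0.11, and H2-DMa by 1.17 ± 0.16 (1.27 ± 0.15) and 0.80 ± 0.16. They were also called in ob at 0.5 mg/kg, at 1.20 ± 0.30 for H2-DMb2, 0.44 ± 0.11 for H2-DMb1 and 0.68 ± 0.16 for H2-DMa, where edgeR called none of the 5 class II members with 36 libraries, and H2-Ab1 alone without replicate 5 of ob at 2 mg/kg. None of the 12 libraries of ob at 0.5 mg/kg and ob controls, left out in turn, ended these 3 calls. At 0, 0.5 and 2 mg/kg in ob the list summed to 15.3 ± 0.962, 21.0 ± 2.46 and 33.4 ± 4.20 CPM per kilobase (34.2 ± 4.16 without replicate 5). Replicate 5, low for the class II members, was within the range of its group for this list.

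Of 14 other T and natural killer cell genes tested, 4 rose in ob at 2 mg/kg (5 without replicate 5), among them the chemokine Ccl5 by 0.97 ± 0.23 (1.04 ± 0.24). Over all genes tested, 20.4% were called higher in ob and 12.3% in b6j, so the counts of this list do not stand clear of those shares. The T cell surface protein Cd5 rose by 1.58 ± 0.57, and the kinase Lck by 0.73 ± 0.28. The Cd5 call was lost without ob control replicate 2, 3 or 6 or 2 mg/kg replicate 5 or 6, and the Lck call without ob control replicate 2 or 3 or 2 mg/kg replicate 3, 5 or 6 (adjusted p up to 0.117). In b6j 1 rose, Trac, the constant region of the T cell receptor alpha chain, by 1.13 ± 0.31. Unlike the 5 members, this list summed higher in ob at 2 mg/kg, at 10.2 ± 3.41 CPM per kilobase (11.5 ± 1.72 without replicate 5), against 6.19 ± 1.13 in ob controls. Without replicate 5 the lowest library, at 9.55, was above the highest ob control, at 7.50. In b6j the list summed to 8.60 ± 1.43 at 2 mg/kg and 7.07 ± 0.839 in controls. Of 10 genes of B and plasma cells, 3 fell in ob at 2 mg/kg (3 fell and 1 rose without replicate 5), led by Mzb1 of the plasma cell endoplasmic reticulum, at -1.21 ± 0.37 (-1.11 ± 0.39), and edgeR called 0 in b6j, with 1 at an unadjusted p below 0.05, 1 called by DESeq2 and 0 by limma-voom. Of 12 neutrophil genes 4 passed the filter, and edgeR, DESeq2 and limma-voom called 0 of the 4 in either genotype, with 0 at an unadjusted p below 0.05.

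Ligands that attract or sustain these leukocytes rose too: of 16 tested, 9 rose in ob (10 without replicate 5) and 9 in b6j at 2 mg/kg and none fell. Csf1, the growth factor whose receptor Csf1r encodes, rose by 1.13 ± 0.17 in ob (1.21 ± 0.16 without replicate 5) and 1.73 ± 0.17 in b6j. Ccl2, the ligand of Ccr2, rose by 3.71 ± 0.57 (3.96 ± 0.47) and 3.76 ± 0.59. Cxcl10, which draws activated T cells, rose by 1.77 ± 0.28 in ob (1.88 ± 0.28), and Icam1, the adhesion molecule for integrins such as CD11b, by 0.99 ± 0.14 in b6j. At 0.5 mg/kg edgeR called 0 of the 16 in either genotype, with 2 in ob and 3 in b6j at an unadjusted p below 0.05. In untreated kidneys Il34, the other ligand of the Csf1r receptor and a product of tubule cells, was at -1.63 ± 0.23 in ob controls relative to b6j controls, and Cxcl16 at 0.48 ± 0.12.

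Markers of other cells moved in the same libraries. All 10 markers of injured tubule rose in ob at 2 mg/kg (9 without replicate 5) and 6 in b6j, with sums of 2801 ± 2906 CPM per kilobase in ob at 2 mg/kg (1622 ± 369 without replicate 5) and 741 ± 72.4 in ob controls. In b6j they were 1067 ± 75.8 at 2 mg/kg and 468 ± 54.4 in controls. The 8 proximal tubule markers summed to 2082 ± 693 in ob at 2 mg/kg (2336 ± 346 without replicate 5) and 3271 ± 314 in ob controls, and to 2234 ± 244 in b6j at 2 mg/kg and 3879 ± 319 in b6j controls. All 8 endothelial markers fell in ob at 2 mg/kg, 6 of 8 without replicate 5, led by Kdr, the receptor of VEGF, at -1.07 ± 0.11 (-0.98 ± 0.096 without it). In b6j edgeR and DESeq2 called 0 of the 8, with 4 at an unadjusted p below 0.05, and limma-voom called 3. Red cell genes summed to 251 ± 148 in ob at 2 mg/kg (300.3 ± 96.3 without replicate 5) and 493 ± 192 in ob controls, with 6.30 in replicate 5. Markers of fat around the kidney summed to 62.7 ± 67.7 in b6j at 2 mg/kg, with a highest library of 192, and 16.5 ± 12.3 in b6j controls, and adrenal markers to 8.07 ± 15.3 and 1.49 ± 0.188, the first with a median of 1.93 and a highest library, replicate 3, of 39.4. Their part in the leukocyte results was not tested.

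Libraries of a group differed together in these genes. In ob at 2 mg/kg replicate 6 was the highest library for 28 of the 37 members and replicate 5 the lowest for 30. Replicate 6 had a sum of 946 CPM per kilobase for the 37 genes and 2219 for the injured tubule markers, the second highest of its group after replicate 5. That second sum weighs abundant markers such as Spp1 most. By Havcr1, taken by itself, replicate 6, at 115 CPM, lay below replicates 5, 1 and 3 (530, 278 and 152 CPM). It lay above replicates 2 and 4 (63.8 and 69 CPM). In b6j at 2 mg/kg the extremes were spread more widely, with replicate 5 highest for 14 members and replicate 3 lowest for 20. In ob controls replicate 1 was highest for 13 and replicate 4 lowest for 15, and in b6j controls replicate 6 was highest for 17 and replicate 1 lowest for 22.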

How the data were processed

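Whole kidney RNA of 36 libraries was analysed from the read counts per gene that the authors deposited. Per the submitters' processing notes, bcl2fastq, Trimmomatic, FastQC and STAR were used with GRCm38, and per the file headers reads were counted with featureCounts 1.4.6-p2 on the Ensembl 96 annotation, ignoring strand. A joined table of 36 columns was not used for values: 24 columns equal a library in every gene, and the other 12 equal none and hold 5146614 to 11933811 reads, against 31230575 to 37244058 in the 12 libraries they leave unmatched. From the counts, edgeR 4.0.16 (R 4.3.3) filtered genes by its default rule, scaled libraries by the TMM method (factors from 0.892 to 1.122) and fitted all 36 libraries in 1 quasi-likelihood model, a mean for each group. Adjusted p-values are Benjamini-Hochberg over the 18180 genes tested in each of 7 comparisons, and the SE is the log2 change over the root of F. The level of 3 counts is taken as the limit of detection, and it covers counting error only. Other lists were of fixed symbols, and up to 3 called genes with the smallest p are named from each. The 37 members and all lists were chosen with earlier results of these data known. Alternatives were DESeq2 1.42.0, limma-voom (limma 3.58.1) with sample weights, other scalings and filters, fits to the compared groups, a replicate block and each library left out. The tests were checked on simulated counts, drawn with the same spread for every gene and with no outlying library. Changes were set only in genes that were not scarce, so the check does not cover replicate 5 or the scarcest members.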

Additional observations from a re-analysis of the deposited data

Results flagged for a closer look

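Of 222 sets of 6 libraries (37 genes in 6 groups), 14 had a library whose gap to its neighbour was large for the range of its set by the criterion of Dixon. Chance alone gives about 1 in 20. In ob at 2 mg/kg, 6 of the 14 were replicate 5: Cd68 was highest there at 45.0 CPM and Cd14 at 58.8 CPM. Csf1r was lowest there at 8.38 CPM, Cd74 at 34.0 CPM, H2-Ab1 at 22.3 CPM and Nkg7 at 0 CPM. The other 8 were all highest values. In ob at 0.5 mg/kg Cd68 was at 5.0 CPM in replicate 1 and Gpnmb at 1.96 CPM in replicate 2. In ob controls Mpeg1 was at 20.7 CPM and Clec7a at 2.59 CPM in replicate 1, Cd52 at 6.04 CPM in replicate 4 and Cx3cr1 at 4.77 CPM in replicate 6. In b6j at 2 mg/kg Lgals3 was at 46.5 CPM and Cd163 at 1.10 CPM in replicate 2, the library with the highest sum of fat markers. No library of b6j at 0.5 mg/kg or of b6j controls stood out in this way.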

How the results depend on the processing

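The number of members called differed between fits. A fit to the compared groups alone called 5 members for the controls and 3 in ob at 0.5 mg/kg, against 0 and 0, and 13 in ob at 2 mg/kg, against 28. With limma-voom the ob libraries at 0.5 mg/kg gave 2 and the controls 3, and without ob 2 mg/kg replicate 5 these were 1 and 3. Without b6j control replicate 2, 1 was called between the controls. With each library left out in turn, members called ranged from 19 to 33 in ob and 15 to 30 in b6j at 2 mg/kg, from 0 to 1 in ob at 0.5 mg/kg, from 0 to 3 between the controls, and were 0 for b6j at 0.5 mg/kg and for both differences in response. DESeq2, DESeq2 size factors, library size alone, no filter and a stricter filter kept each count of members within 1.5-fold. The replicate numbers share only a name: the mean correlation of deviations between libraries with the same number was 0.000445, with 5 of 90 pairs over 0.1, and 7 of 36 libraries correlated best with their own number. With a replicate block 26 members were called in ob and 21 in b6j at 2 mg/kg and 0 elsewhere. With the 24 libraries that equal a joined column, 18 members were called in ob and 6 in b6j at 2 mg/kg and 0 elsewhere, from 5 and 3 libraries at 2 mg/kg and 6 and 2 controls. Of all genes, that fit, chosen after seeing the data, called 758 between the controls, 509 for ob at 0.5 mg/kg, 14 and 1444 for b6j at 0.5 and 2 mg/kg, and 1 and 21 for the differences at 0.5 and 2 mg/kg. Its count of all genes in ob at 2 mg/kg stayed within 1.5-fold of the count with 36 libraries. No called change of a member turned its sign under any alternative. Star, an adrenal marker, was 1.17 higher in b6j at 2 mg/kg and ranged from -0.030 (without b6j 2 mg/kg replicate 3) to 1.34 with libraries left out. The cause was not tested.

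Over all genes, edgeR called 779 in ob at 0.5 mg/kg, against 1937 with the compared groups alone, 2337 with limma-voom and 1780 without ob 2 mg/kg replicate 5. In the same order of settings the counts were 3880, 7015 and 6989 against 6976 in ob at 2 mg/kg, 120, 232 and 157 against 59 in b6j at 0.5 mg/kg, 6061, 6949 and 6388 against 4305 in b6j at 2 mg/kg, and 5007, 5629 and 4781 against 2822 between the controls. For the difference in response they were 321, 805 and 254 against 70 at 0.5 mg/kg and 194, 1075 and 758 against 376 at 2 mg/kg. DESeq2 called 106 in b6j at 0.5 mg/kg, and 148 and 748 for the differences at 0.5 and 2 mg/kg, and at 2 mg/kg library size alone called 590 and no filter 239. With library size alone the median change of all genes was 0.16 between the controls, 0.12 in b6j at 2 mg/kg and -0.11 in ob at 0.5 mg/kg, against 0.03, 0.02 and -0.01. Depth limits Trem2, Cd163, Cd3e, Itgam, Nkg7, Gpnmb, Cd4, Cd3g and Ms4a7 most, with lowest control levels from 0 to 0.29 CPM. The level of Itgam may also be too low through the exons it shares with Gm49368.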
